A study of Homo sapiens with 12 samples.

Results

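RNA from THP-1 cells given 50 μM chlorquinaldol was compared with RNA from THP-1 cells given 20 μM of the same compound. All libraries labelled with either dose were taken, 3 per dose, which makes 6 of the 12 libraries of the study, and every expressed gene was tested. THP-1 is an established line of human monocytic leukemia cells that grow in suspension and can be driven towards macrophages. Both chlorquinaldol groups were exposed for 8 h. The other groups were untreated cells and cells exposed to 3'-3'-cGAMP, a cyclic dinucleotide that activates STING, at 1 μg/mL and likewise for 8 h. They enter the results here only as background levels, and otherwise only the description of the libraries and 1 alternative fit, because a comparison with untreated cells would share the 20 μM or the 50 μM libraries with the dose comparison. No vehicle is named for any group, and the time in culture of the untreated cells is not given. The labels do not say whether replicates were separate cultures, so the p-values speak only of how far these libraries differed among themselves, which may be technical.

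Chlorquinaldol is a chlorinated 8-hydroxyquinoline used as an antiseptic, and compounds of this class bind divalent metal ions such as zinc, copper and iron. Cells have well known programmes for metal and oxidant stress: metal sensing by MTF1, which drives metallothioneins, and electrophile and heme sensing by NRF2 and BACH1, which control HMOX1, GCLM and TXNRD1. Iron-dependent prolyl hydroxylases sense oxygen and hold back HIF target genes, and ATF4 answers amino acid shortage or mitochondrial stress. Monocytes have in addition the NF-kB pathway, in which freed p50 and RelA dimers switch on chemokines, cytokines and their own inhibitors. The dose comparison shows which genes of these programmes differed between 20 and 50 μM.

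The libraries held 17620929 to 18926562 gene-assigned counts at 20 μM and 19011578 to 19222607 at 50 μM. On the first principal component of all 12 libraries, which carried 67.4% of the variance among the 500 most variable genes, the 20 μM libraries lay at 14.7 to 25.8, the 50 μM libraries at 42.7 to 50.1 and the untreated libraries at -32.3 to -29.9. Libraries of one dose correlated at 0.9858 to 0.9898 on log2 CPM and libraries of different doses at 0.9589 to 0.9751. Replicates were less alike under the drug than without it: the biological coefficient of variation was 0.105 within the 20 μM group and 0.116 within the 50 μM group, against 0.0638 within untreated cells. For this reason the spread was estimated from the 6 drug libraries alone. Monocytic markers were present at both doses: LYZ, SPI1, ITGAM, CEBPA, FCER1G and TYROBP read at least 110 CPM (depth-normalised counts) in every drug library, CD33 78.4 to 95.8 and CD14 28.0 to 47.3. By contrast, 14 of 17 T and NK cell markers, 7 of 10 B cell markers and 9 of 10 epithelial markers stayed below 1 in all 6.

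Levels are given as CPM scaled by TMM factors, listed in the order of replicates 1, 2 and 3 of a dose. The differences are the log2 of the 50 μM level over the 20 μM level ± its standard error. Of 15959 tested genes, 5192 differed between the doses at an adjusted p below 0.05 by the edgeR quasi-likelihood test, which is 32.5% of those tested. Of these, 2625 genes were higher at 50 μM (16.4%) and 2567 were lower (16.1%). A change of at least 2-fold was reached by 738 of the higher genes (4.62%) and 490 of the lower genes (3.07%), and a change of at least 4-fold by 186 and 38. The median change of all tested genes was -0.01 and the quartiles were -0.29 and 0.27. The split between the directions depended on the scaling and on the values tested. With TMM scaling 50.6% of calls were higher, and with upper-quartile scaling 43.4%. The share was 35.5% (1556 higher against 2829 lower) when limma was used and the deposited FPKM values were tested on a log2 scale with a pseudocount of 1. That scale moved the median of all genes to -0.09, and to -0.12 with a pseudocount of 0.1, so every change below is relative to the bulk of genes under TMM. The same test over every gene without a filter, named the unfiltered FPKM test below, called 910 genes higher and 1480 lower.

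**Figure D1:**
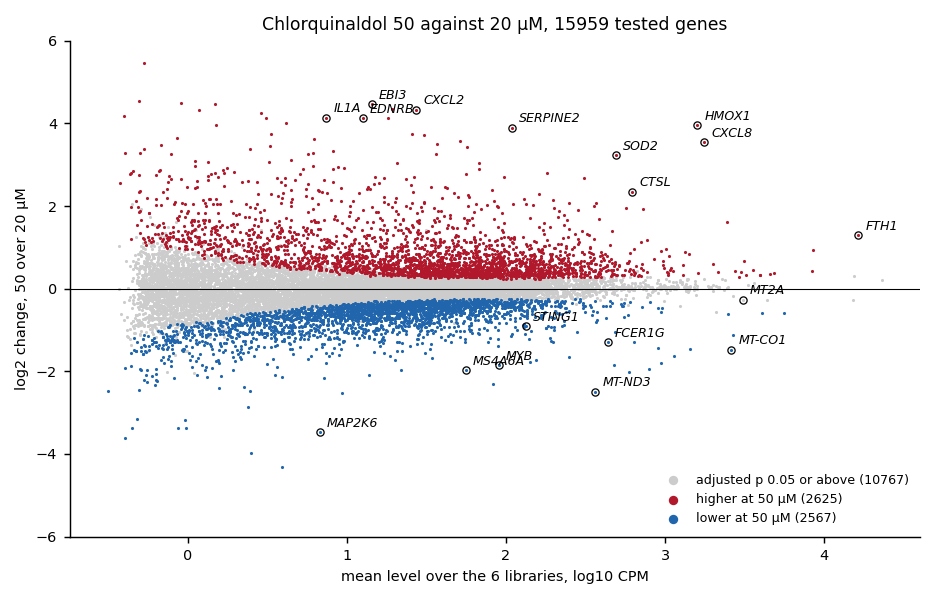
Log2 change from 20 to 50 μM chlorquinaldol (vertical) against the mean level over the 6 libraries in log10 CPM (horizontal), 1 point for each of 15959 tested genes, with red points higher and blue points lower at an adjusted p below 0.05. More genes rose than fell by at least 2-fold in this fit, an excess that depended on the scale. The labelled FTH1, HMOX1 and CXCL8 rose at high levels while the mitochondrially encoded MT-CO1 and MT-ND3 fell.

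The 15 largest increases that met the naming rule were EBI3, CXCL2, TFPI2, IL1A, EDNRB, TNFAIP6, CXCL3, TNFRSF9, HMOX1, SERPINE2, NRCAM, ETV3L, CCL4, PDGFB and G0S2. EBI3, a subunit that interleukins 27 and 35 share, lies on chromosome 19 at 4229498 to 4237531 (GRCh38) and read 1.48, 1.14 and 1.05 CPM at 20 μM and 35.7, 28.3 and 18.5 CPM at 50 μM. Its 20 μM level was near the untreated mean of 0.977 CPM, and the change of 4.47 ± 0.26 (adjusted p = 3.17e-07) was 22.2-fold. SERPINE2, a secreted inhibitor of thrombin and urokinase, read 12.7, 15 and 13.3 CPM at 20 μM and 269, 179 and 161 CPM at 50 μM, a change of 3.89 ± 0.18 (adjusted p = 1.04e-07), with an untreated mean of 8.06 CPM. NRCAM, a cell adhesion molecule best known from neurons, was at 0.0338 CPM in untreated cells, at 3.07, 4.6 and 2.99 CPM at 20 μM and at 46.8, 40.4 and 56.0 CPM at 50 μM (3.75 ± 0.18, adjusted p = 1.04e-07). For these 3 genes the gap between the doses was far wider than the spread within them. EDNRB, the endothelin B receptor, rested more on a single library: it read 14.1, 16.9 and 40.4 CPM at 50 μM after 1.54, 1.48 and 1.05 CPM at 20 μM, and the change fell from 4.13 to 3.52 without replicate 3 of the 50 μM group. TFPI2, TNFAIP6 and TNFRSF9 were below 1 CPM in every 20 μM library, so the size of their change depends on few counts; it moved from 4.24 to 4.89 for TFPI2 without replicate 2 of the 20 μM group and from 4.12 to 4.75 for TNFAIP6 without replicate 1 of that group.

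NF-kB subunits, their inhibitors and other feedback genes of the pathway rose almost as a block. Of 27 tested members of the list, 26 were higher at 50 μM and none was lower, with a median change of 1.69 against -0.01 over all genes; 20 members rose at least 2-fold. The member with the smallest p was IRAK2, a kinase-like adaptor below interleukin 1 and Toll-like receptors, which read 18.1, 14.5 and 11.3 CPM at 20 μM and 165, 110 and 87.5 CPM at 50 μM (3.04 ± 0.22, adjusted p = 1.08e-06). SOD2, the manganese superoxide dismutase of mitochondria and a classical NF-kB target, read 91.3, 96.7 and 94.9 CPM at 20 μM, close to the untreated mean of 103 CPM, and 1390, 652 and 625 CPM at 50 μM, a change of 3.23 ± 0.25 (adjusted p = 1.56e-06). NFKBIA, which encodes the inhibitor that holds NF-kB in the cytoplasm, read 77.7, 72.7 and 67.9 CPM at 20 μM, near the untreated mean of 62.9 CPM, and 477, 251 and 239 CPM at 50 μM. For SOD2 and NFKBIA the 20 μM libraries lay near the untreated level and all 50 μM libraries lay well above both. The list as a whole was already above untreated cells at 20 μM. Its summed level was 909 to 1090 CPM in untreated libraries, 1350 to 1610 CPM at 20 μM and 3780 to 6180 CPM at 50 μM. Among the subunits themselves, the changes were 2.21 for RELB, 1.70 for NFKB2, 1.69 for NFKB1, 0.93 for REL and 0.78 for RELA. Further members were the adhesion molecule ICAM1 (2.28), the anti-apoptotic ubiquitin ligase BIRC3 (2.50), the adaptor TRAF1 (2.11), the kinase MAP3K8 (1.66), the ubiquitin-editing inhibitor TNFAIP3 (1.39), its partner TNIP1 (1.03) and the deubiquitinase CYLD (0.66). Replicate 1 of the 50 μM group was the highest of its dose for 24 of the 26 called members and replicate 3 the lowest for 18; without replicate 1 the count stayed at 26 with a median of 1.56.

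The 250 bases before each RefSeq transcription start (GRCh38.p14) were searched on both strands for the κB site spelled GGAATTTCC or GGACTTTCC. A match was found for 11 of the 25 members of the NF-kB list that have a window (44.0%), against 110 of 10388 tested protein-coding genes with a window (1.06%) and 0.905% of all 27305 windows. The list was written from known genes of the pathway, so its share describes the list and not the dose step. Of protein-coding genes called at least 2-fold higher, 406 of 549 have a window and 28 held a match. Of those called at least 2-fold lower, 266 of 361 have a window and 1 held a match. A match describes these letters and says nothing of binding. The 11 members were NFKB1, NFKB2, REL, NFKBIA, NFKBIB, NFKBIZ, TNFAIP3, TNIP1, ICAM1, MAP3K8 and CYLD. The chemokine genes CXCL1, CXCL2, CXCL3, CXCL8, CXCL10 and CXCL11 held a match as well; with a window for only 14 of the 21 tested genes of the chemokine list, no share is given for it. The sequences before the starts of the secreted CXCL8 and CXCL2 and of the inhibitor NFKBIA and the adhesion molecule ICAM1 are shown 5′ to 3′ on the strand of the gene, up to the base before the start, with the match in capitals. They lie at chr4:73740449-73740568 (plus strand), chr4:74099196-74099315 (minus), chr14:35404750-35404869 (minus) and chr19:10270920-10271119 (plus), and the first base of the match stands 91, 77, 81 and 186 bases before the start.
CXCL8: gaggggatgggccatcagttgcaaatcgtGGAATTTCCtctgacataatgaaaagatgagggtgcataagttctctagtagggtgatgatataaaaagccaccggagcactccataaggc
CXCL2: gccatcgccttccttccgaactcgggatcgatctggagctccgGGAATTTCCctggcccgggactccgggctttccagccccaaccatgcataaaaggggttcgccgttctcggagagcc
NFKBIA: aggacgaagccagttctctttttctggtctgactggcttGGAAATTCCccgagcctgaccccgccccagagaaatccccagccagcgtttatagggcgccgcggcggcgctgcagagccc
ICAM1: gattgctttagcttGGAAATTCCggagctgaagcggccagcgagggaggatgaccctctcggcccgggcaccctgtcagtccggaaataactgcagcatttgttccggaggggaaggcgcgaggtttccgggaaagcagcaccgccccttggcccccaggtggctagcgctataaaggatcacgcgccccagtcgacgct

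Neutrophil and T cell attractants rose, while among the receptors CXCR2 and CCR2 fell and CCR7 was called higher. Of 21 tested members of the chemokine list, 14 were higher and 2 lower, with a median change of 0.99. The median was 1.84 without replicate 3 of the 50 μM group and 1.55 and 1.53 without replicates 1 and 3 of the 20 μM group. CXCL8, the main neutrophil attractant of monocytes, read 318, 316 and 193 CPM at 20 μM and 4150, 2580 and 3020 CPM at 50 μM, a change of 3.55 ± 0.21 (adjusted p = 4e-07), with an untreated mean of 93.7 CPM. It was the most abundant chemokine of the list at 50 μM, and the lowest 50 μM library was far above the highest 20 μM library. CXCL2 read 3.22, 2.44 and 1.99 CPM at 20 μM and 83.1, 37.8 and 34.8 CPM at 50 μM (4.33 ± 0.33, adjusted p = 1.54e-06), and CXCL3 and CXCL1, its close relatives, changed by 4.12 and 2.90. CXCL10, an attractant of activated T cells that interferons induce, read 1.43, 1.02 and 0.947 CPM at 20 μM and 13.9, 13.9 and 5.68 CPM at 50 μM (3.28 ± 0.34, adjusted p = 1.38e-05). CCL4, an attractant of monocytes and T cells, was at 3.74, 5.79 and 3.49 CPM at 20 μM and at 106, 37.3 and 27.0 CPM at 50 μM; the change of 3.71 dropped to 2.90 without replicate 1 of the 50 μM group. CCL2 did not pass the test (-0.61, adjusted p = 0.0538). Several alternative fits called it lower, among them DESeq2 (adjusted p = 0.0372) and the fit without replicate 1 of the 20 μM group (-0.84, adjusted p = 0.00444). The receptors CXCR2, which binds CXCL8, and CCR2, which binds CCL2, fell by 1.20 and 1.29. CCR2 read 41.7, 66.5 and 83.1 CPM at 20 μM and 26.9, 25.8 and 25.8 CPM at 50 μM.

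Cytokine genes rose in part. Of 19 tested members of the cytokine list, 13 were higher and none was lower (median 1.01), and another 13 of the 32 written members stayed below 1 CPM in all 6 libraries. IL1B, the secreted form of interleukin 1, read 69.7, 104 and 74.9 CPM at 20 μM and 847, 420 and 329 CPM at 50 μM, a change of 2.67 ± 0.28 (adjusted p = 1.72e-05). IL1A, its cell-associated relative, went from 1.13, 0.568 and 0.648 CPM to 21.7, 11.2 and 9.28 CPM (4.14 ± 0.36). Their natural antagonist IL1RN rose too, by 1.01. The T cell costimulator TNFSF15 changed by 3.27, the pleiotropic LIF by 3.39, the macrophage growth factor CSF1 by 2.08 and the stress cytokine GDF15 by 2.19. The size for LIF depended on the scale, at 0.86 with log2(FPKM + 1) and 1.94 with a pseudocount of 0.1. TNF went against this group: it read 289, 251 and 196 CPM at 20 μM and 220, 197 and 93.5 CPM at 50 μM, the doses overlapped, and the change of -0.54 did not pass the test (adjusted p = 0.0991). It was called lower with no filter, with the replicate block (adjusted p = 0.00267) and without replicate 1 of the 50 μM group (adjusted p = 0.024). With an untreated mean of 73.6 CPM, TNF was therefore above the untreated level in the drug libraries of both doses without a further rise from the lower to the higher dose. IL18, another interleukin 1 relative, was also not called (-0.14, adjusted p = 0.517).

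**Figure D2:**
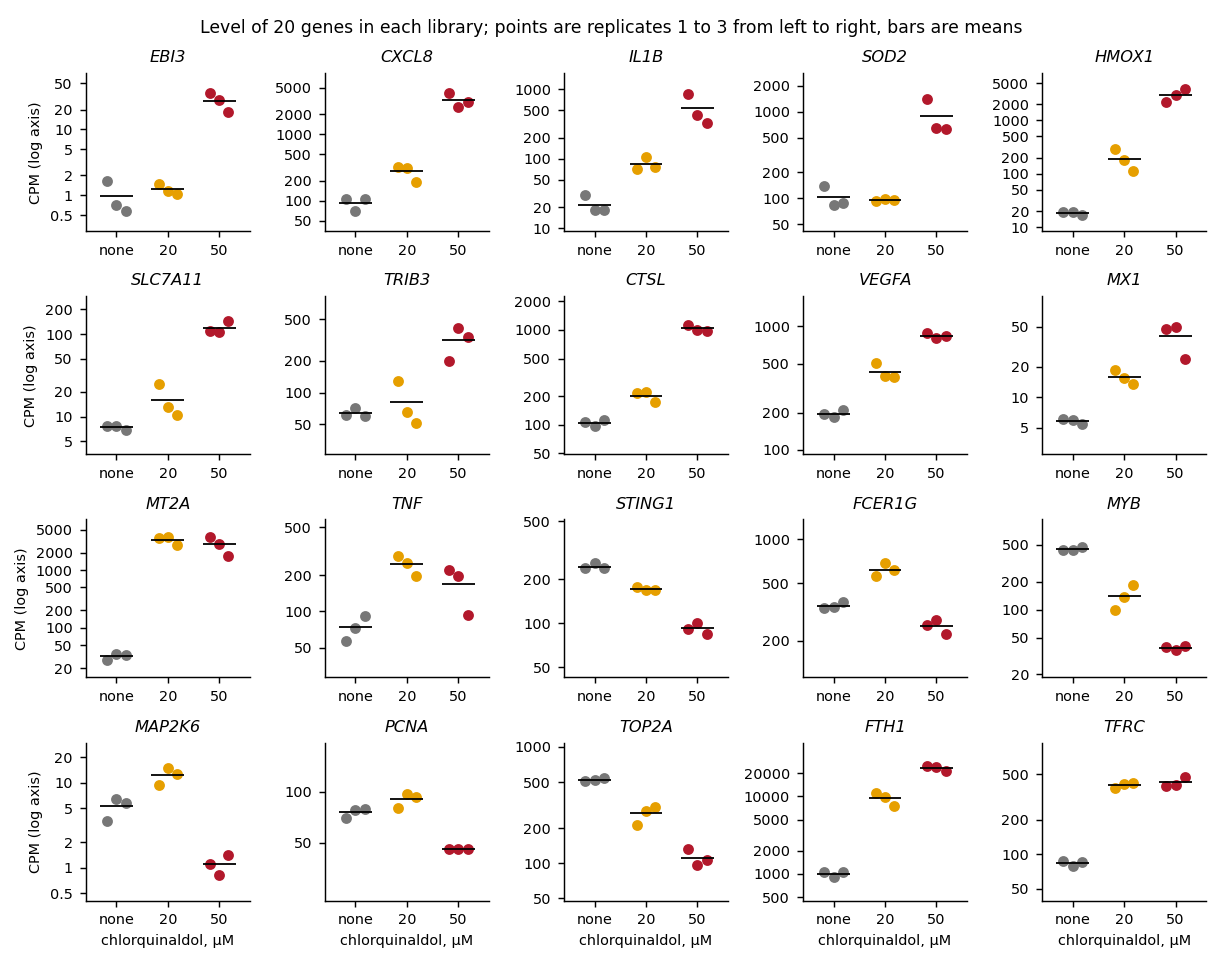
Level of 20 genes (vertical, CPM on a log axis) in untreated cells and at 20 and 50 μM chlorquinaldol, each point 1 library (replicates 1 to 3 from left to right) and each bar the mean of 3. EBI3 and SOD2 lie near the untreated level at 20 μM and above it at 50 μM, HMOX1, CTSL and FTH1 are higher at each dose, MT2A and TFRC are high at both doses, and FCER1G is highest at 20 μM.

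Feedback genes of the MAP kinase pathway were higher for 14 of 19 tested members and lower for none (median 0.72), and the unfiltered FPKM test called 6 higher. PHLDA1 read 109, 103 and 72.0 CPM at 20 μM and 465, 406 and 332 CPM at 50 μM (2.08 ± 0.16, adjusted p = 1.53e-06) against an untreated mean of 6.90 CPM. The EGF receptor inhibitor ERRFI1 changed by 1.53 and the MAP kinase phosphatases DUSP5, DUSP1 and DUSP6 by 1.63, 1.38 and 1.12. MAP2K6 itself, the kinase that activates p38, had the second largest decrease under the naming rule, after CERS6-AS1. It read 9.42, 15 and 12.8 CPM at 20 μM and 1.10, 0.820 and 1.42 CPM at 50 μM, an 11.1-fold difference (-3.47 ± 0.24, adjusted p = 7.47e-07), with an untreated mean of 5.28 CPM between them. Immediate early transcription factors split. Of 27 tested, 12 were higher and 3 lower, with 4 higher in the unfiltered FPKM test. JUN rose by 1.33, MAFF by 1.55, ATF3 by 1.41 and IER3, a survival gene, by 2.22, while EGR3 fell by 1.56 and FOS was not called (-0.26, adjusted p = 0.117). EGR1 read 246, 282 and 221 CPM at 20 μM and 187, 142 and 67.2 CPM at 50 μM (-0.93 ± 0.25, adjusted p = 0.0125), and its call was lost without replicate 2 of the 20 μM group (adjusted p = 0.0735) and under DESeq2 (adjusted p = 0.0932).

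Interferon-stimulated genes were higher at 50 μM in 47 of 55 tested cases and lower in none, with a median change of 0.83, against 1.69 for the NF-kB list; 18 reached 2-fold. Only 18 were called higher by the unfiltered FPKM test. The helicase IFIH1, which senses viral RNA, read 33.4, 30.3 and 25.1 CPM at 20 μM and 89.8, 84.2 and 70.8 CPM at 50 μM (1.46 ± 0.12, adjusted p = 3.12e-06). MX1, a GTPase that blocks influenza virus, read 18.6, 15.7 and 13.5 CPM at 20 μM and 47.4, 49.9 and 23.7 CPM at 50 μM (1.33 ± 0.22). Replicate 3 of the 50 μM group was the lowest of its dose in 46 of the 47 called members, and replicate 3 of the 20 μM group the lowest of its dose in 37. The largest change in the list belonged to GBP5 (2.08, and 0.65 with log2(FPKM + 1)), a guanylate-binding protein, and the transcription factor IRF7 rose by 1.20. IFITM2, an entry inhibitor, was not called (-0.08, adjusted p = 0.625). Among sensors of nucleic acids, STING1 moved the other way: it read 177, 170 and 170 CPM at 20 μM and 91.9, 101 and 84.9 CPM at 50 μM, a fall by 0.91 ± 0.09 (adjusted p = 1.36e-05) from an untreated mean of 245 CPM. CGAS, which makes the STING ligand, was not called (0.19, adjusted p = 0.139). Of the 22 tested sensing genes, 9 were higher and 2 lower, with TLR2 up by 1.20 and the kinase IKBKE by 1.12. In the inflammasome list 4 of 13 tested members were higher and 3 lower: the membrane rupture protein NINJ1 rose by 1.59 and the sensor NLRP3 by 0.79, whereas the sensor NAIP fell by 1.31.

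Genes of the oxidant response rose, with HMOX1 in front. HMOX1, which degrades heme to biliverdin, iron and carbon monoxide, lies on chromosome 22 at 35380361 to 35394214 (GRCh38) and read 286, 181 and 110 CPM at 20 μM and 2240, 2930 and 3810 CPM at 50 μM, a change of 3.96 ± 0.30 (adjusted p = 1.53e-06), or 15.5-fold; the untreated mean was 18.3 CPM. At 50 μM the libraries ranked differently for this gene than for the chemokines. Replicate 3 was the lowest at 20 μM, as for 11 of the 16 called members of the chemokine list. At 50 μM it was the highest for HMOX1 and the lowest for 13 of those 16. Of 36 tested NRF2 targets, 27 were higher and 2 lower (median 0.66). SLC7A11, the cystine importer that feeds glutathione synthesis, read 24.9, 12.9 and 10.4 CPM at 20 μM and 110, 107 and 144 CPM at 50 μM (2.89 ± 0.25, adjusted p = 3.16e-06). TXNRD1, the cytosolic thioredoxin reductase, read 165, 142 and 123 CPM at 20 μM, near its untreated mean of 146 CPM, and 596, 477 and 644 CPM at 50 μM (1.99 ± 0.14, adjusted p = 7.47e-07). GCLM, the modifier subunit of the enzyme that starts glutathione synthesis, read 60.8, 43.6 and 37.2 CPM at 20 μM and 182, 162 and 294 CPM at 50 μM (2.17 ± 0.22). The sulfiredoxin SRXN1 rose by 1.61, malic enzyme ME1 by 1.55, the efflux pump ABCC3 by 2.45, and the NADPH-producing PGD by 0.97. The 2 members that were lower, ABCC4 (-0.46) and AKR1C2 (-0.30), each lost the call in 4 of the 6 fits that left out a library.

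The windows before the starts were also searched for the antioxidant response element in the form TGACNNNGC, a pattern that also takes an AP-1 site TGACTCA followed by GC. It was present in 15.8% of windows of tested protein-coding genes, and only 27 of the 36 tested NRF2 targets have a window, too few for a share of the list. It was found in 8 of them: GCLM, TXNRD1, PGD, ME1 and KEAP1, which rose, ABCC4, which was called lower, and EPHX1 (0.30) and CBR1 (-0.31), which were not called. The windows of GCLM and TXNRD1, a pair of the strongest responders of the list, are shown as above with the match in capitals. GCLM lies at chr1:93909431-93909510 (minus strand) with the match beginning 34 bases before the start, and TXNRD1 at chr12:104215659-104215778 (plus) with the match beginning 99 bases before it.
GCLM: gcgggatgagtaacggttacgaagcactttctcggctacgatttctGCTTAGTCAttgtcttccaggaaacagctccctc
TXNRD1: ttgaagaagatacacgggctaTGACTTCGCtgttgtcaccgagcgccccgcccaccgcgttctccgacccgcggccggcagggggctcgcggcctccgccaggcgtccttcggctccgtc

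RNA of the ferritin heavy chain rose further while that of the main iron importer did not. FTH1, the heavy chain of ferritin, read 11200, 9770 and 7430 CPM at 20 μM and 24800, 23700 and 21200 CPM at 50 μM (1.29 ± 0.14, adjusted p = 2.76e-05) after an untreated mean of 1010 CPM, and stood among the 10 genes with the most counts. The light chain gene FTL rose by 0.43, a call that the FPKM-based fit did not make. TFRC, the transferrin receptor, read 376, 412 and 422 CPM at 20 μM and 398, 402 and 473 CPM at 50 μM, with overlapping doses and a change of 0.07 (adjusted p = 0.652); its untreated mean was 83.4 CPM. The divalent metal transporter SLC11A2 rose by 0.89 and the heme transporter SLC48A1 by 1.41. Over the whole iron and heme list 9 of 23 tested members were higher (5 in the unfiltered FPKM test) and 1 lower. The median of 0.11 turned to -0.02 on the FPKM scale and was 0.2 without replicate 3 of the 50 μM group. FTH1 has processed pseudogenes that may take part of its reads.

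Metallothioneins, the small cysteine-rich proteins that bind zinc and copper, were far above their untreated level at both doses, and none was called higher at 50 μM. Their summed level was 91.7 to 115 CPM in untreated libraries, 6300 to 8560 CPM at 20 μM and 3720 to 8110 CPM at 50 μM. MT2A read 3620, 3710 and 2750 CPM at 20 μM and 3750, 2860 and 1760 CPM at 50 μM (-0.27, adjusted p = 0.338), and MT1X, MT1E and MT1F were not called either. Of 9 tested members none was higher and MT1G alone was lower (-0.64, adjusted p = 0.0277), a call that 4 of the 6 fits without a library lost; the median was -0.41. The count depended on single libraries and on the fit. Without replicate 1 of the 50 μM group all 9 were lower with a median of -0.76. Without replicate 3 of that group none was lower and the median was -0.12. With all 6 libraries kept, 8 of 10 members were lower with no filter and 4 of 9 with the replicate block. Reads of these near-identical genes may be shared among them. The zinc exporter SLC30A1, like the metallothioneins a target of MTF1, was at 312, 330 and 295 CPM at 20 μM and at 384, 302 and 304 CPM at 50 μM (0.07, adjusted p = 0.651) against 41.1 CPM in untreated cells. MTF1 itself rose by 1.02 and the vesicular zinc transporter SLC30A4 by 2.59 (0.89 with log2(FPKM + 1)), the largest change among 20 zinc transporter list members, of which 4 were higher and 2 lower. That is 6 of 20 called, beside 32.5% of all tested genes. In the copper list of 15 members the exporter ATP7A (0.58) and the importer SLC31A1 (0.60) rose, and 3 members were higher and 2 lower in all (33.3% called). The medians of the zinc transporter and copper lists, 0.06 and 0.03, turned to -0.06 and -0.08 on the FPKM scale.

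Genes of the ATF4 pathway, which supplies amino acids and charged tRNAs under stress, were higher in 30 of 41 tested cases and lower in 1 (median 0.53); the unfiltered FPKM test called 11 higher. TRIB3, an ATF4-induced pseudokinase, read 129, 65.5 and 52.0 CPM at 20 μM and 201, 411 and 337 CPM at 50 μM, a change of 1.94 ± 0.30 (adjusted p = 0.00032), with an untreated mean of 64.3 CPM. ASNS, which makes asparagine, read 48.9, 43.6 and 47.8 CPM at 20 μM, the same range as the untreated mean of 45.9 CPM, and 69.3, 87.3 and 110 CPM at 50 μM (0.92 ± 0.14, adjusted p = 0.00032). Replicate 1 of the 50 μM group, highest for most NF-kB members, was the lowest of its dose for 18 of the 31 called ATF4 list members. The tRNA synthetase genes WARS1 and GARS1 rose by 1.12 and 0.74, the amino acid transporters SLC7A5, SLC3A2 and SLC38A2 by 1.07, 0.95 and 0.67, the death-linked factor DDIT3 by 0.79 and ATF4 itself by 0.48. The serine synthesis genes PHGDH (0.24, adjusted p = 0.106) and PSAT1 (0.26, adjusted p = 0.191) were not called. The amino acid response element, written as TGATGNAA and searched on both strands, was found before the starts of 7 of the 35 list members with a window (20.0%: AARS1, ASNS, CEBPG, CHAC1, GARS1, JDP2 and SLC1A5), against 2.36% of tested protein-coding genes. This list too was written from known genes of the pathway. Among protein-coding genes with a window, 16 of 406 called at least 2-fold higher and 11 of 266 called at least 2-fold lower held the element. The ASNS window at chr7:97872409-97872508 (minus strand) is shown because this element was long studied in that gene; its match begins 68 bases before the start.
ASNS: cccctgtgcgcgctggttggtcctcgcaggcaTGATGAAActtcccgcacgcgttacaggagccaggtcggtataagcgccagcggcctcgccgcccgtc

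Chaperones of the endoplasmic reticulum moved in both directions, 6 of 28 tested members up and 6 down (median 0.01). Fits of the FPKM values called 1 up and 5 down, with a median of -0.10. The counts dropped to 2 up without replicate 2 or 3 of the 20 μM group, to 3 up without replicate 3 of the 50 μM group and to 2 down without replicate 2 of the 50 μM group. The transcription factor XBP1 rose by 0.67, while SDF2L1 and CRELD2, secretory pathway proteins that the unfolded protein response induces, fell by 0.74 and 0.51. Cytosolic heat shock genes were higher in 9 of 29 cases and lower in 1, which is 34.5% called beside 32.5% of all tested genes. Without replicate 3 of the 20 μM group 5 were higher, and on the FPKM scale 3. The co-chaperones DNAJB2 and BAG3 rose by 0.98 and 0.49. Inducible HSPA1A was not called and read 6.60, 7.67 and 9.12 CPM at 20 μM and 8.44, 4.97 and 6.50 CPM at 50 μM. HSPA1A is nearly identical to HSPA1B, so the division of reads between them is uncertain. Of 32 tested members of the proteasome list, 7 were called higher and none lower. That is 21.9% called, beside 32.5% of all tested genes called and 16.4% called higher. The median of 0.09 turned to -0.03 on the FPKM scale, where 3 members were higher and 3 lower. Without replicate 3 of the 20 μM group 3 were higher, and without replicate 2 of the 50 μM group 4. NFE2L1, the factor that restores proteasome genes and itself a called member of this list, rose by 0.69.

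Autophagy and lysosome genes were higher in 17 of 43 tested cases and lower in 1 (median 0.21), with 9 higher in the unfiltered FPKM test. CTSL, the lysosomal protease cathepsin L, had the smallest p of the list: it read 215, 220 and 174 CPM at 20 μM and 1130, 1000 and 979 CPM at 50 μM, a 5.09-fold change (2.35 ± 0.12, adjusted p = 1.69e-07), after an untreated mean of 106 CPM. SQSTM1, the cargo receptor p62 and also an NRF2 target, read 386, 297 and 222 CPM at 20 μM and 1290, 1090 and 1090 CPM at 50 μM (1.93 ± 0.17). The LC3 family genes GABARAPL1 and MAP1LC3B rose by 1.41 and 0.87, the receptor OPTN by 0.96, and the lysosomal transcription factors TFE3 and MITF by 1.08 and 0.98.

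Targets of the hypoxia-inducible factors, which stabilise when prolyl hydroxylases lack oxygen or iron, were higher in 24 of 34 tested cases and lower in none (median 0.45), with 12 higher in the unfiltered FPKM test. ANGPTL4, a secreted inhibitor of lipoprotein lipase, read 20.7, 15.2 and 11.1 CPM at 20 μM and 95.6, 75.5 and 63.8 CPM at 50 μM (2.31 ± 0.20, adjusted p = 3.04e-06), against 0.525 CPM in untreated cells. VEGFA, the main angiogenic factor, read 502, 397 and 391 CPM at 20 μM and 876, 813 and 833 CPM at 50 μM (0.96 ± 0.11), and its receptor gene FLT1 changed by 1.98. Members with a wide range of response stood side by side: the carbonic anhydrase CA12 changed by 2.24 (1.0 with log2(FPKM + 1)) and collagen hydroxylase PLOD2 by 0.59. The mitophagy receptor BNIP3 (0.29, adjusted p = 0.0559) and the oxygen sensor EGLN1 (0.29, adjusted p = 0.0572) were not called, though DESeq2 called both higher. Their libraries did not overlap, which was so for 23.1% of all tested genes with 50 μM higher. Glycolysis genes were higher in 16 of 27 cases and lower in 1 (median 0.34), and 8 were higher without replicate 1 or 2 of the 50 μM group and 9 without replicate 3 of the 20 μM group. Fits of the FPKM values called 8 higher, and 3 in the unfiltered FPKM test. The transporters SLC2A6 and SLC2A3 rose by 1.87 and 0.69 and the pyruvate dehydrogenase kinase PDK1 by 0.66, while the hexokinase HK3 fell by 0.97. GAPDH and ENO1, both among the 10 genes with the most counts, were called at 0.39 and 0.35, but each lost the call when certain single libraries were left out (replicate 3 of the 20 μM group and replicates 1 and 2 of the 50 μM group for both, and replicate 1 of the 20 μM group for GAPDH).

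Lipid genes were called higher more often than lower. Lipid droplet and scavenger genes were higher in 8 of 16 tested cases and lower in none (median 0.46), and cholesterol synthesis genes in 15 of 31 with 4 lower (median 0.25; 9 higher without replicate 3 of the 20 μM group or on the FPKM scale, 4 in the unfiltered FPKM test, and 2 lower without replicate 2 of that group or replicate 1 or 3 of the 50 μM group). PLIN2, the coat protein of lipid droplets, read 6290, 6220 and 5070 CPM at 20 μM and 13500, 10400 and 9690 CPM at 50 μM (0.93 ± 0.14, adjusted p = 0.000262) after an untreated mean of 1640 CPM. G0S2, an inhibitor of droplet lipolysis, read 8.91, 7.44 and 7.27 CPM at 20 μM and 143, 79.1 and 62.7 CPM at 50 μM (3.58 ± 0.26, adjusted p = 1.12e-06). The acyl-CoA synthetase ACSL1 rose by 1.5 and the fatty acid receptor CD36 by 1.32. In sterol synthesis NSDHL and MVD rose by 0.64 and 0.66 and the feedback protein INSIG1 by 0.49. SREBF1, a transcription factor of lipid synthesis, fell by 0.53.

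RNA from the mitochondrial genome fell for all 13 protein genes. The median change was -1.73, the range -2.49 to -1.13, and the libraries of the doses did not overlap for any of the 13. Over all tested genes, the 50 μM libraries all lay below the 20 μM libraries in 23.3% and all above them in 23.1%. The unfiltered FPKM test called 5 of them. MT-ND3, a subunit of complex I, read 265, 674 and 904 CPM at 20 μM and 206, 92.8 and 31.2 CPM at 50 μM (-2.49 ± 0.52, adjusted p = 0.00271), with an untreated mean of 1070 CPM. MT-CO1, a core subunit of cytochrome c oxidase, read 2600, 3610 and 5310 CPM at 20 μM and 2110, 1270 and 759 CPM at 50 μM (-1.48 ± 0.30, adjusted p = 0.00232) against 12900 CPM in untreated cells. MT-CO3 had the smallest change: it read 2950, 4140 and 3950 CPM at 20 μM and 2360, 1510 and 1180 CPM at 50 μM (-1.13 ± 0.21, adjusted p = 0.00104). Within a dose the libraries ordered the same way for nearly all of these genes, with replicate 1 the lowest of the 20 μM group in 13 of 13 and the highest of the 50 μM group in 13 of 13, so that the nearest libraries of the doses were both replicate 1. Summed, the 13 genes took 1.30%, 1.86% and 2.52% of counts at 20 μM and 0.870%, 0.539% and 0.374% at 50 μM, against 4.20% to 4.91% in untreated libraries. Without replicate 1 of the 50 μM group the median was -2.14, and the changes of MT-ND3, MT-ND6, MT-CYB and MT-ND2 grew to -3.31, -2.91, -2.60 and -2.40. The RNAs of the mitochondrial ribosome were not called in this fit: MT-RNR2 read 16000, 15000 and 10000 CPM at 20 μM and 15200, 17000 and 18300 CPM at 50 μM (0.30, adjusted p = 0.167), and MT-RNR1, looked up after the values were seen, had a change of -0.56 (adjusted p = 0.0882). MT-RNR1 was called lower in 5 of the alternative fits: with no filter, with 12 libraries, with the replicate block (adjusted p = 0.00296), without replicate 3 of the 20 μM group (-0.79, adjusted p = 0.0115) and without replicate 1 of the 50 μM group (-0.84, adjusted p = 0.00866). MT-RNR2 went the other way and was called higher with no filter (0.29, adjusted p = 0.0346). Polyadenylated RNA was enriched with oligo(dT), so these levels count polyadenylated molecules, and MT-ND6 lies opposite other genes, whose reads cannot be told apart from its own without strand.

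**Figure D3:**
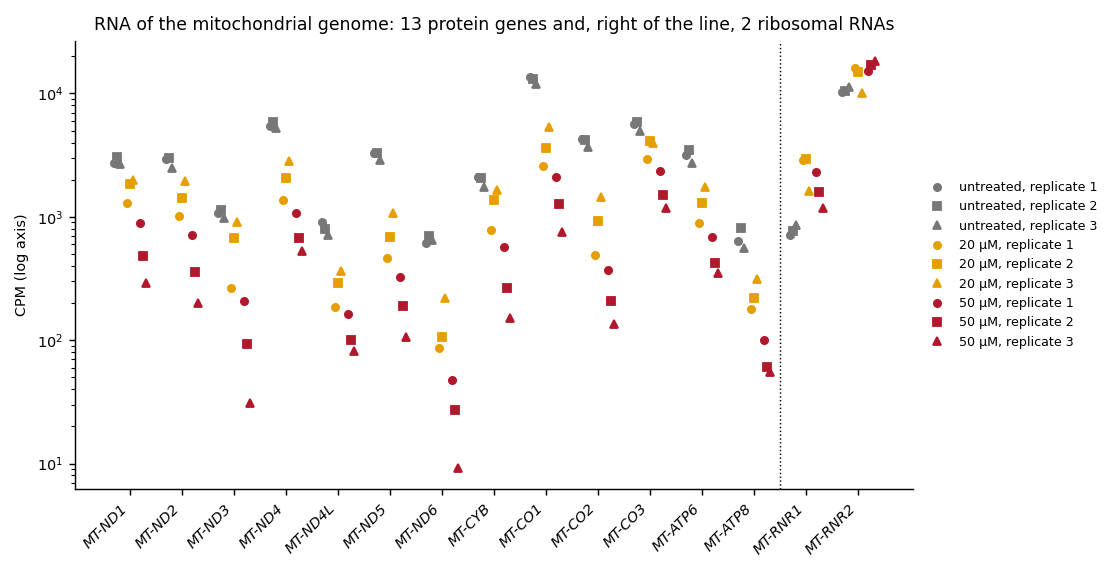
Level (vertical, CPM on a log axis) of the 13 protein genes of the mitochondrial genome and, right of the dotted line, the ribosomal RNAs MT-RNR1 and MT-RNR2, in each untreated (grey), 20 μM (orange) and 50 μM (red) library, with the marker shape giving the replicate. Red points lie below orange points for every protein gene, and the spread between replicates is wider under the drug than without it.

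Nuclear genes for mitochondria changed less. Of 47 tested oxidative phosphorylation subunits, 12 were lower and 1 higher (median -0.21), and of 78 mitochondrial ribosomal proteins 18 were lower and 4 higher (median -0.18). These lists had 27.7% and 28.2% of members called, beside 32.5% of all tested genes. The complex I subunit NDUFB10 fell by 0.49, and MRPL33 fell by 0.76 while MRPS6 rose by 1.15. These counts were unsteady: they were 29 and 34 lower on the FPKM scale, and 7 and 2 lower without replicate 2 of the 20 μM group. Leaving out any other single library except replicate 1 of the 20 μM group left 7 to 9 mitochondrial ribosomal proteins lower. The polymerase that transcribes the mitochondrial genome, POLRMT, was not called (0.07, adjusted p = 0.624). TFAM, which packages that genome, read 24.1, 26.2 and 30.6 CPM at 20 μM and 20.9, 18.1 and 22.4 CPM at 50 μM (-0.40, adjusted p = 0.0218), a call lost without replicate 2 or 3 of the 20 μM group or replicate 2 of the 50 μM group (adjusted p = 0.0556, 0.113 and 0.115). In the list of mitochondrial transcription and RNA genes 2 of 25 were higher and 6 lower (8 of 25 called; 2 lower without replicate 2 or 3 of the 20 μM group or replicate 2 of the 50 μM group).

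Proliferation genes fell by a moderate amount. Of 40 tested S phase and nucleotide synthesis genes, 38 were lower and none higher (median -0.66), and of 39 mitosis genes 37 were lower and none higher (median -0.64). PCNA, the sliding clamp of DNA polymerase, read 80.1, 96.9 and 92.6 CPM at 20 μM and 46.2, 46.0 and 46.3 CPM at 50 μM (-0.97 ± 0.10, adjusted p = 1.08e-05). Its untreated mean was 75.8 CPM, so the 20 μM libraries were not below untreated cells. The helicase subunit MCM3, the replication factor GINS2, the primase PRIM1 and the nuclease FEN1 fell by 0.96, 1.04, 1.07 and 0.95. TOP2A, which untangles chromosomes, read 215, 284 and 308 CPM at 20 μM and 133, 96.0 and 106 CPM at 50 μM (-1.27 ± 0.14, adjusted p = 3.03e-05), and its untreated mean was 525 CPM. The mitotic kinase CDK1 fell by 0.70, the motor KIF11 by 0.84 and the survival and cytokinesis protein BIRC5 by 0.84. The proliferation marker MKI67 (-0.58, adjusted p = 0.00886) lost its call without replicate 2 of the 50 μM group (adjusted p = 0.0535). Only 4 S phase and 6 mitosis genes reached 2-fold. In bulk RNA, fewer cells in a phase and less RNA per cell cannot be told apart.

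An E2F site spelled TTTGGCGC or TTTCCCGC was found on either strand of the 250 bases before the start in 15 of 37 S phase genes with a window (40.5%) and in 1 of 32 mitosis genes (3.12%, CDC25A), against 3.92% of tested protein-coding genes. The S phase list was written from known replication genes, so its share describes the list and not the dose step. Among protein-coding genes with a window, 12 of 266 called at least 2-fold lower and 12 of 406 called at least 2-fold higher held the site. The change of the 15 genes ran from -1.04 for GINS2 to -0.34 for MCM7. The windows of MCM3, at chr6:52284743-52284942 (minus strand, match beginning 174 bases before the start), and of PCNA, at chr20:5126623-5126722 (minus, 59 bases), show the site on either strand.
MCM3: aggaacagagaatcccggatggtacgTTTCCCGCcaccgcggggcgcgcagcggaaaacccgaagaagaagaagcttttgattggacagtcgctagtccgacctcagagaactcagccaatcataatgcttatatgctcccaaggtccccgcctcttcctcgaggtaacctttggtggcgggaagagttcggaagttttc
PCNA: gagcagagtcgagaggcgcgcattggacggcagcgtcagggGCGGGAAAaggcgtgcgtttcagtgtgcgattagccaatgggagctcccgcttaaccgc

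Regulators of the cell cycle and of survival accompanied these changes. MYB, a transcription factor of immature blood cells, read 99.6, 137 and 185 CPM at 20 μM and 39.1, 37.1 and 40.3 CPM at 50 μM (-1.86 ± 0.17, adjusted p = 5.53e-06), from an untreated mean of 449 CPM. Cyclin gene CCNE1 fell by 0.99 and CCND1 rose by 1.43, and the MAX partners MXD3 and MXD1 went in opposite directions (-1.46 and 0.90). Of 27 tested p53 targets, 10 were higher and 4 lower (6 higher without replicate 2 of the 20 μM group or on the FPKM scale). CDKN1A, the cyclin kinase inhibitor p21, read 552, 404 and 323 CPM at 20 μM and 764, 877 and 710 CPM at 50 μM (0.87 ± 0.16, adjusted p = 0.00127), and GADD45A and PLK3 rose by 1.06 and 1.71. FDXR, a mitochondrial reductase, and XPC and DDB2, which recognise DNA damage, fell by 1.02, 0.52 and 0.46. In the BCL2 family and caspase list 9 of 24 were higher (5 in the unfiltered FPKM test) and 4 lower: pro-survival MCL1 and BCL2A1 rose by 0.83 and 1.06, pro-death BID and BCL2L11 by 0.82 and 0.67, and BIK and the apoptosome scaffold APAF1 fell by 0.86 and 0.48.

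Markers of myeloid maturity did not move as one. Of 34 tested monocyte identity genes, 12 were lower and 4 higher (median -0.21), with 1 higher in the unfiltered FPKM test. FCER1G, the signalling chain of Fc receptors, read 563, 685 and 610 CPM at 20 μM and 258, 278 and 224 CPM at 50 μM (-1.30 ± 0.11, adjusted p = 3.62e-06). Since its untreated mean was 350 CPM, the doses stood on opposite sides of the untreated level. The progenitor regulator GFI1 fell by 1.28, CEBPA by 0.50 and IRF8 by 0.90, the granule protease ELANE by 0.45, and the calcium-binding S100A9 by 0.95. CD14 (-0.22, adjusted p = 0.27), LYZ (-0.18, adjusted p = 0.169), ITGAM (0.01, adjusted p = 0.942) and MPO were not called, while SPI1, the master factor PU.1, rose by 0.60 and ITGAX by 1.21. The MS4A membrane protein genes were among the largest decreases: MS4A6A read 49.7, 89.4 and 129 CPM at 20 μM and 23.0, 19.3 and 25.9 CPM at 50 μM (-1.98 ± 0.25, adjusted p = 8.17e-05) against 436 CPM in untreated cells. MS4A4A and MS4A4E fell by 2.16 and 1.90.

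Of 29 tested macrophage genes, 14 were higher and 5 lower. The median of 0.34 was 0.17 without replicate 1 of the 50 μM group and 0.02 with log2(FPKM + 1). Osteopontin SPP1, a secreted matrix protein, rose from 1030, 1440 and 1090 CPM to 4320, 3650 and 3040 CPM (1.62 ± 0.15). The gelatinase MMP9 rose by 1.80 and the lipid-sensing receptor PPARG by 1.05, whereas the complement genes C1QA and C1QC fell by 0.76 and 0.96 and the urokinase PLAU by 0.72. SERPINB2, a urokinase inhibitor, read 0.768, 4.32 and 12 CPM at 20 μM and 0.984 to 1.85 CPM at 50 μM. It was called lower (-2.08, adjusted p = 0.0266), but the doses overlapped and the change was -0.89 without replicate 3 of the 20 μM group (adjusted p = 0.247); the call was also lost without replicate 2 of that group (0.061) or replicate 2 or 3 of the 50 μM group (0.0982 and 0.0627). Of 23 tested surface receptors, 14 were higher and 4 lower (median 1.03, and 0.36 with log2(FPKM + 1)); the unfiltered FPKM test called 8 higher. The amplifying receptor TREM1 read 68.4, 58.9 and 47.6 CPM at 20 μM and 267, 240 and 205 CPM at 50 μM (2.02 ± 0.14, adjusted p = 6.94e-07). The complement receptor C5AR1 changed by 1.87. The costimulators CD80 and CD40 changed by 3.45 and 1.35, while the nucleotide receptor P2RY2 and the formyl peptide receptor FPR1 fell by 1.96 and 1.62. With log2(FPKM + 1) the changes were 1.54 for CD80, -1.33 for P2RY2 and -0.66 for FPR1. MHC class I genes were higher in 8 of 19 cases (2 in the unfiltered FPKM test) and lower in 2 (among the higher, TAPBP 0.69 and B2M 0.43), and in class II only CD74 of 10 was called (0.41).

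A few markers of other cell types were called. IL7R encodes a cytokine receptor chain known from T cells and also found on activated monocytes. It read 2.05, 2.50 and 2.09 CPM at 20 μM and 20.6, 16.6 and 13.5 CPM at 50 μM. The change was 2.93 ± 0.19 (adjusted p = 4.96e-07). IL7R was the only called gene of 4 tested T and NK cell markers. VWF, known from endothelium, changed by 2.67 (0.73 with log2(FPKM + 1)) and was the only called gene of 4 tested fibroblast and endothelial markers, 9 of 12 of which were below 1 CPM. Summed T and NK markers went from 14.6 to 16.6 CPM at 20 μM to 28.1 to 38.7 CPM at 50 μM, B cell markers from 13 to 15.7 CPM to 10.1 to 10.9 CPM, and erythroid and megakaryocyte markers from 2.19 to 2.73 CPM to 2.46 to 2.84 CPM. Summed fibroblast and endothelial markers were higher than these, at 362 to 414 CPM at 20 μM and 333 to 392 CPM at 50 μM. CD79B, a B cell receptor chain, was called lower (-0.47) and PPBP, a platelet chemokine, higher (1.16), but CD79B kept its call in 1 and PPBP in 2 of the 6 fits that left out a library. The part of these markers in the other results was not tested.

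Besides the mitochondrial and MS4A genes, MAP2K6 and MYB, the 15 largest decreases were those of CERS6-AS1, TMEM104, VAT1L, NUDT7 and P2RY2. NUDT7, a peroxisomal hydrolase of coenzyme A, read 14.9, 23.1 and 29 CPM at 20 μM and 4.86, 5.46 and 5.57 CPM at 50 μM (-2.08 ± 0.21). TMEM104, a membrane protein gene, read 10.7, 15.3 and 21.9 CPM and then 2.72, 3.11 and 2.46 CPM (-2.53 ± 0.24, adjusted p = 7.19e-06). The antisense RNA CERS6-AS1 was at 0, 1.09 and 0 CPM at 50 μM, and DESeq2 did not call it (adjusted p = 0.108). Its change of -4.32 became -10.1 without replicate 2 and -3.72 without replicate 3 of the 50 μM group, and without strand its reads cannot be told from those of CERS6. AS3MT, an arsenic methyltransferase gene, lies on chromosome 10 at 102869516 to 102901899 (GRCh38). Among genes with a symbol, it alone had at most 3 counts over one dose and at least 20 in every library of the other. It had 27, 39 and 36 counts at 20 μM and 0, 0 and 0 at 50 μM. With a floor of 3 counts over the 50 μM group, its level was 35.2-fold lower at 50 μM. The lower end of the 95% interval of this ratio was 28.1, and no upper end is given.

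Large gene families were counted in the same way. Cytosolic ribosomal proteins were called in 2 of 83 cases (2.41%, both higher, RPL7L1 and RPL22L1; the latter lost its call without replicate 1 of either dose, adjusted p = 0.0564 and 0.0583), and replication-dependent histones, mostly not polyadenylated, in 0 of 9. ZNF genes were higher in 52 and lower in 44 of 456 tested (21.1% called), and intergenic noncoding RNAs named LINC were higher in 31 and lower in 24 of 241 (22.8%), beside the 32.5% of all genes. The ZNF counts were 25 and 25 without replicate 2 and 28 and 21 without replicate 3 of the 20 μM group, and 26 were lower without replicate 2 of the 50 μM group. Among the 10 genes with the most counts, EEF1A1 (0.20, adjusted p = 0.183), YBX1 (-0.08, adjusted p = 0.559) and CAP1 (-0.27, adjusted p = 0.0567) were not called, and ACTB fell by 0.60 from 6470, 6670 and 6870 CPM to 4980, 4550 and 3770 CPM. Several alternative fits called CAP1 lower, among them DESeq2 (adjusted p = 0.0127).

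**Figure D4:**
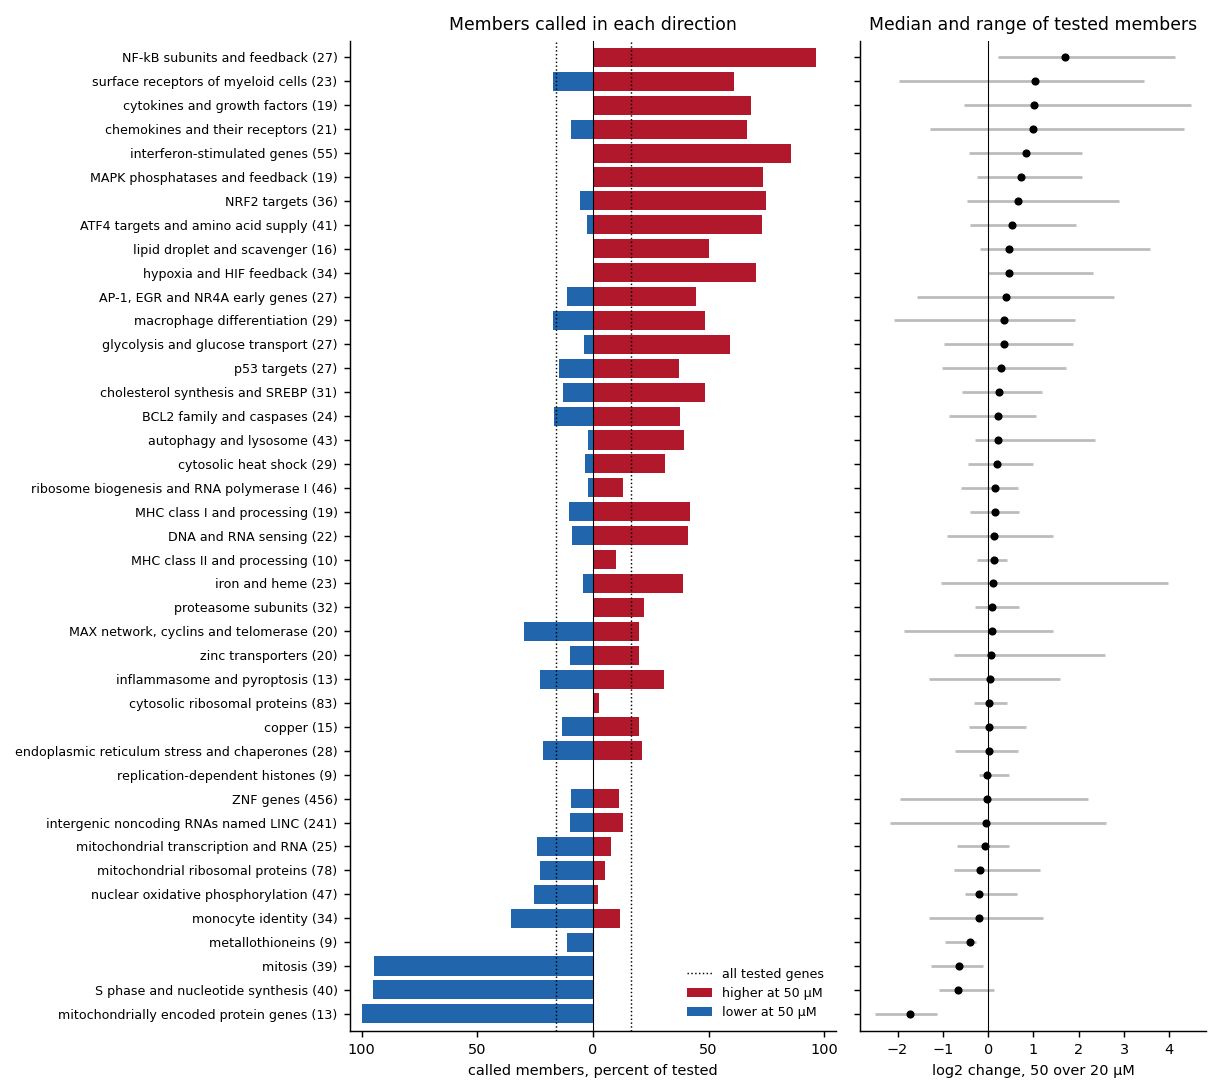
For each gene list with at least 9 tested members (number in brackets), the percent of tested members called higher (red, right) and lower (blue, left) at 50 against 20 μM, with dotted lines at the 16.4% and 16.1% of all tested genes, and the median and range of log2 change. NF-kB genes stand at the top with 26 of 27 higher, and the mitochondrially encoded genes at the bottom with 13 of 13 lower.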

How the data were processed

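The 6 chlorquinaldol libraries (3 per dose) were compared. The deposited estimated counts and FPKM values per gene were made by the authors with RSEM on GRCh38, per the submitters' processing notes, which also list DESeq2 1.26.0; aligner, annotation and strand setting are not given in the sources used here. Estimated counts (42.31% of values above 0 were not whole) were rounded and tested with edgeR 4.0.16 in R 4.3.3 (quasi-likelihood, TMM, filterByExpr with a minimum count of 10, Benjamini-Hochberg adjusted p below 0.05 over 15959 genes, residual degrees of freedom 4). With 17620929 to 19222607 counts per library, genes near 1 CPM rest on few counts. Alternatives were DESeq2 1.42.0, other scaling and filters, all 12 libraries, a replicate block, limma 3.58.1 on log2 of FPKM plus 1 or 0.1, and leaving out each library. An exact permutation test of 3 against 3 cannot go below 0.1 and was not used. The script was tested on simulated data.

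Members and lists were chosen with earlier results of these data known. Named were the 15 largest increases and decreases among called genes with a mean of at least 5 CPM in the higher group, more than 3 counts over each group and libraries that did not overlap; members of the gene lists and of a panel; genes with at most 3 counts over one dose and at least 20 in each library of the other; and the 10 highest genes. Promoter windows came from RefSeq (GRCh38.p14), and gene positions from GENCODE 29. GCLC, CENPA, MERTK and CCL3L1 were not analysed here.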

Additional observations from a re-analysis of the deposited data

How the results depend on the processing

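No named gene with a call changed sign under an alternative: of the values of single genes under an alternative, 5272 kept their side of the threshold with no called value changing sign, 289 lost the call and 73 gained one. The counts of 2625 higher and 2567 lower genes became 1687 and 1422 at an adjusted p below 0.01, 1556 higher with limma on log2(FPKM + 1), 1555 higher with a pseudocount of 0.1, and 910 and 1480 with FPKM and every gene kept. The counts of at least 2-fold changes, 738 and 490, became 411 and 201 with at least 5 CPM in 3 libraries, 310 and 181 with log2(FPKM + 1), and 291 and 161 with every gene kept. With a pseudocount of 0.1 they became 537 and 561, so that more genes fell than rose by at least 2-fold. DESeq2 called 2540 higher and 2130 lower, and upper-quartile factors 2335 and 3049, so that 43.4% of calls were higher. Leaving out single libraries gave 1969 to 2685 higher and 1802 to 2620 lower genes, and 659 to 862 and 350 to 572 at 2-fold. Medians near 0 changed sign for several lists: copper to -0.01 with upper-quartile factors, -0.08 with log2(FPKM + 1), also with every gene, -0.09 with a pseudocount of 0.1, and from -0.04 to 0.05 without single libraries; zinc transporters to -0.06, iron and heme to -0.02 and proteasome subunits to -0.03 in each FPKM fit; and MHC class II to -0.02, -0.04 and -0.01 in the 3 FPKM fits. In those fits the medians of endoplasmic reticulum chaperones (-0.10), inflammasome genes (-0.09, -0.09 and -0.03), the MAX network (-0.06, -0.06 and -0.03) and cytosolic ribosomal proteins (-0.10) also lay below 0. The cause was not tested. With the replicate block 2615 genes were higher and 2504 lower, and 4931 genes were called with and without it. Over all tested genes, libraries of the same number did not deviate together (correlations -0.0439, -0.022 and 0.0791). Single lists differed. Replicate 1 was the highest for 24 of 26 called NF-kB members at both doses. For the 13 mitochondrially encoded genes it was the lowest at 20 μM and the highest at 50 μM. Whether the numbers pair the libraries is not given by the labels and was not settled here.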
